A study of Mus musculus with 20 samples.

Results

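The transcripts described here are those of 10 heat shock chaperone genes, of 23020 genes in the table: Hspa1b, Hspa1a, Hspa8, Hsph1, Dnajb1, Dnaja1, Hsp90aa1, Hsp90ab1, Hspd1 and Hspe1. They were picked by symbol, and the set was drawn up because Hspa1b and Hsph1 had their highest levels in crypts of co-housed Xiap-/- mice. RNA came from crypts of the small intestine of 20 C57BL/6 mice. Crypts are the pockets at the base of the epithelium where its stem cells divide and Paneth cells lie. The groups were 5 co-housed Xiap-/- mice, 5 co-housed wild-type (WT) mice, 4 Xiap-/- mice housed apart and 6 WT mice housed apart. Co-housing meant that the genotypes shared cages for 4 weeks, and mice housed apart lived with their own genotype. Xiap encodes an inhibitor of caspases and of other forms of cell death. The labels give neither the age of the mice, nor the cages, nor the deleted part of Xiap. Replicates were taken as separate mice from their titles, and a spread shared within a cage cannot be told apart from that between mice.

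Heat shock chaperones hold unfolded proteins and help them to fold. HSP70 proteins bind exposed stretches of protein in cycles of ATP use, J-domain proteins such as Dnajb1 and Dnaja1 deliver clients and speed up ATP use, and the HSP110 protein Hsph1 releases the spent nucleotide. HSP90 proteins act later, on kinases, receptors and other nearly folded clients, and Hspd1 with its lid Hspe1 forms the folding chamber of the mitochondrial matrix. Under proteotoxic stress the transcription factor Hsf1 binds heat shock elements, which are alternating GAA and TTC units, and raises many of these genes. Hspa1a and Hspa1b are the strongly inducible HSP70 genes, while Hspa8, Hsp90ab1 and the mitochondrial pair are expressed in most cells without stress.

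Levels are the authors' normalized values on a log2 scale, made from the 3' ends of poly(A) transcripts counted with unique molecular identifiers, and they are not corrected for transcript length, so genes are compared between groups and not with each other. Differences are on the same log2 scale. The number of counts behind a value is not in the table. As a stand-in for depth, the share of rare genes that stood more than 0.015 above their own median over the libraries was taken. This share averaged 17.1% ± 10.5 in the 4 Xiap-/- mice housed apart (SD) and 7.71% ± 3.69 in the 6 WT mice housed apart. By a two-sided exact permutation test of 210 splits this gave p = 0.0333, and 0.127 after Benjamini-Hochberg adjustment for the 4 pairs of groups compared. It was 8.77% ± 2.77 (n = 5) in co-housed Xiap-/- mice and 8.74% ± 1.47 (n = 5) in co-housed WT mice. The Xiap transcript lay between 6.25 and 6.48 in Xiap-/- mice housed apart and between 6.56 and 7.08 in WT mice housed apart. In co-housed mice it lay between 6.29 and 6.91 in Xiap-/- and between 6.36 and 6.84 in WT. A 3' tag can lie outside a deleted part, so the transcript does not check the genotypes, and those of co-housed mice rest on the labels. Crypt markers were abundant (Defa24, a Paneth cell defensin, had a mean of 14.17), and 0 of 6 measured neuronal and glial markers reached the minimum mean for testing, which was log2 of 10, or 3.322.

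Of the 10 genes, 9 reached that minimum over the 20 libraries. Hspa1a, with a mean of 3.28, did not. Hspa1b did with a mean of 3.56, but its mean over the other 3 groups was 3.27, so it was tested only through the co-housed Xiap-/- mice in which it was high. Counts over the 9 tested genes therefore carry no weight as evidence in any comparison with that group. In those comparisons the values below are a description with intervals and no p-value, and counts past a threshold are given only beside the share of all genes, as a record of how the set was chosen.

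All 10 genes had their highest group mean in co-housed Xiap-/- crypts, which held for 20.1% of the 9521 tested genes. The mean level of the 10 genes was 7.37, 7.50, 7.40, 7.17 and 7.53 in the 5 co-housed Xiap-/- mice, against 6.92 to 7.09 in co-housed WT mice. It was 6.83 to 7.004 in Xiap-/- mice housed apart and 6.74 to 7.01 in WT mice housed apart. The 5 co-housed Xiap-/- mice were thus the 5 highest of the 20. Without the stress-inducible genes Hspa1a, Hspa1b, Hsph1 and Dnajb1, the mean of the other 6 was 8.52 to 8.79 in co-housed Xiap-/- mice. It was 8.39 to 8.63 in co-housed WT mice, 8.25 to 8.415 in Xiap-/- mice housed apart and 8.22 to 8.53 in WT mice housed apart. For these 6, co-housed Xiap-/- mice thus lay above all Xiap-/- mice housed apart but overlapped both WT groups. The WT mice that reached into their range were replicate 5 of the co-housed and replicate 2 of those housed apart.

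**Figure D1:**
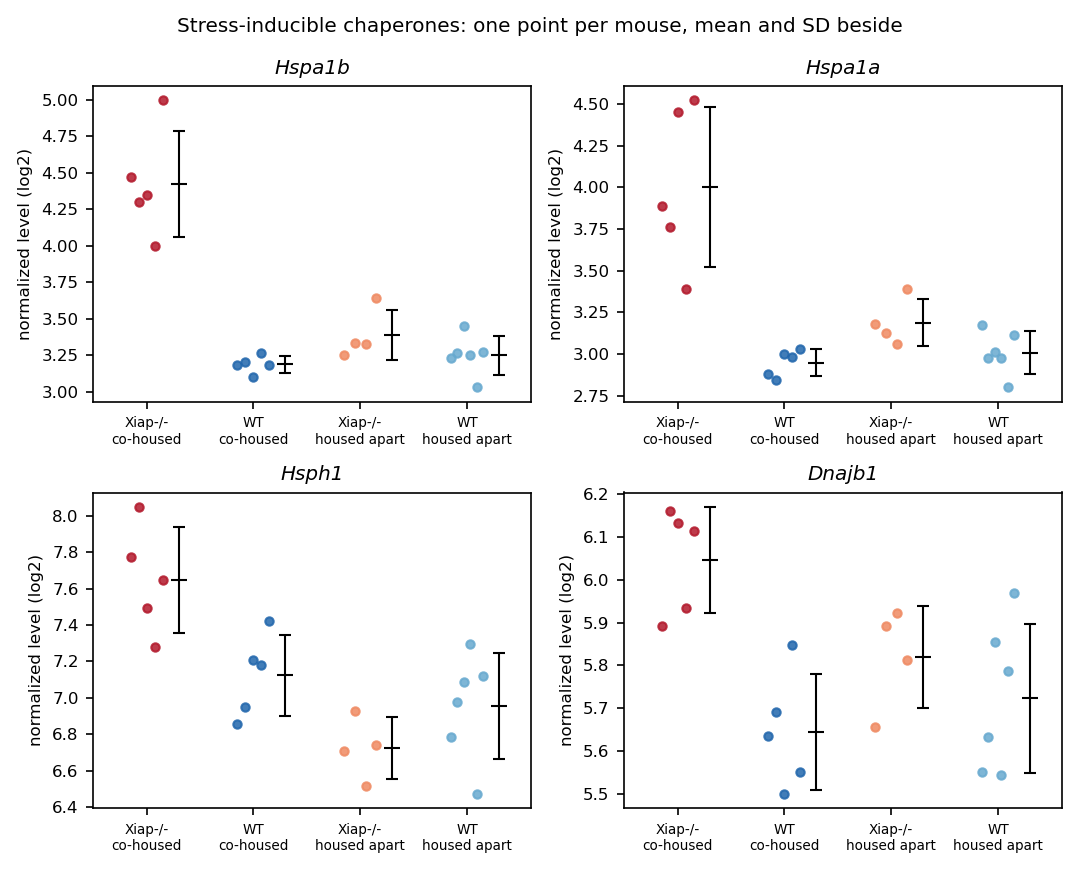
Normalized level (log2) of Hspa1b, Hspa1a, Hsph1 and Dnajb1 in each of the 20 mice by group, with the group mean and SD as a bar beside the points. Co-housed Xiap-/- mice have the highest mean in each panel, and single mice of other groups reach into their range for Hspa1a, Hsph1 and Dnajb1 but not for Hspa1b, at 4.00 to 5.00 against 3.10 to 3.27 in co-housed WT mice.

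Hspa1b and Hspa1a, the inducible cytosolic HSP70 genes, showed the largest differences of the set between the co-housed genotypes. Hspa1b had levels of 4.47, 4.30, 4.35, 4.00 and 5.00 in co-housed Xiap-/- mice, against 3.18, 3.21, 3.10, 3.27 and 3.19 in co-housed WT mice. It had levels of 3.25, 3.33, 3.33 and 3.64 in Xiap-/- mice housed apart, and a lowest, median and highest level of 3.03, 3.26 and 3.45 in WT mice housed apart. No co-housed Xiap-/- value met any value of the other 3 groups, and the other 3 groups overlapped one another. Its difference was 1.23 ± 0.12 (SE), or 2.35-fold, from co-housed WT mice (95% interval 1.00 to 1.47) and 1.03 ± 0.12, or 2.05-fold, from Xiap-/- mice housed apart (0.78 to 1.28). These intervals use a spread pooled over the groups. The SD of Hspa1b was 0.36 in co-housed Xiap-/- mice and 0.06 in co-housed WT mice, so the intervals may be too narrow. The genotype difference in co-housed mice exceeded that in mice housed apart by 1.10 ± 0.17. Because the level of Hspa1b outside this group lay near the low end of the tested range, where normalized values may be drawn towards the gene's mean, the fold may understate the change.

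Hspa1a had levels of 3.89, 3.76, 4.45, 3.39 and 4.52 in co-housed Xiap-/- mice, against 2.88, 2.84, 3.00, 2.98 and 3.03 in co-housed WT mice. In Xiap-/- mice housed apart it had levels of 3.18, 3.13, 3.06 and 3.39, and in WT mice housed apart a lowest, median and highest level of 2.80, 3.00 and 3.17. All 5 co-housed Xiap-/- values lay above all 5 co-housed WT values, and the lowest of them, replicate 4, met the highest value of Xiap-/- mice housed apart. In a fit with no minimum level the difference from co-housed WT mice was 1.05 ± 0.16 (95% interval 0.72 to 1.39), and that from Xiap-/- mice housed apart was 0.81 ± 0.17 (0.46 to 1.17). These intervals may also be too narrow, as the SD of Hspa1a was 0.48 in co-housed Xiap-/- mice and 0.08 in co-housed WT mice. Among co-housed Xiap-/- mice, replicate 5 was the highest and replicate 4 the lowest for both genes.

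Hspa1a and Hspa1b are neighbouring copies without introns on the minus strand of mouse chromosome 17 (GRCm38, GENCODE M21), Hspa1b at chr17:34956436-34959238 and Hspa1a at chr17:34969190-34972156, with 9951 bases between them. Their coding parts are nearly alike, which makes the origin of a read a question. In the annotated transcripts, 0 of 326 windows of 75 bases, the read length, in the last 400 bases of either gene occurred in another gene, so 3' reads there can be told apart. The promoters differed at 4 of 300 positions. They are shown because both copies had the same pattern over the groups, from 250 bases before to 50 after the start (RefSeq, GRCm38.p6, minus strand, chr17:34959189-34959488 for Hspa1b and chr17:34972107-34972406 for Hspa1a), with matches to a heat shock element core in capitals.
Hspa1b: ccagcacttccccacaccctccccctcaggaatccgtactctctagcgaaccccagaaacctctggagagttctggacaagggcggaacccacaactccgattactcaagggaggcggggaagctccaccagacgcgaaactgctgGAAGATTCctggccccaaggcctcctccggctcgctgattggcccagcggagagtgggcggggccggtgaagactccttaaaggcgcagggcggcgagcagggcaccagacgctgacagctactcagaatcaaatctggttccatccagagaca
Hspa1a: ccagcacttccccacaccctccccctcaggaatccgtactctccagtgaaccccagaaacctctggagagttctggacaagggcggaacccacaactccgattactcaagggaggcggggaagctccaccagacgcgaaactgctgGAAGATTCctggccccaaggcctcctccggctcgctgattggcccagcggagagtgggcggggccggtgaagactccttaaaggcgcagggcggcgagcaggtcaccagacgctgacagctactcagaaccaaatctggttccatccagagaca
Each holds 1 core, GAAGATTC, whose first base lies 104 bases upstream of the start. The core searched was GAANNTTC or TTCNNGAA, each of which reads the same on both strands, and 15.1% of 32851 RefSeq promoter windows of this length hold at least 1. Among the members, 7 had a window, with 12 windows in all, some of which overlap. A core was held by 7 of these 12 windows and, counted by gene, by 6 of the 7 members in at least 1 of their windows. Dnaja1 held 1, the Dnajb1 windows held none of these letters, and Hspa8, Hsp90aa1 and Hsp90ab1 are named only. A match of letters is not a measured binding site.

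Hspa8, the constitutive cytosolic HSP70 gene on chromosome 9 (40800984 to 40810087), showed a smaller difference. It had levels of 10.18, 10.43, 10.12, 10.06 and 10.16 in co-housed Xiap-/- mice, against 9.76, 9.83, 9.90, 10.01 and 10.19 in co-housed WT mice. Xiap-/- mice housed apart had 9.74, 10.003, 9.85 and 9.83, and WT mice housed apart had a lowest, median and highest level of 9.83, 9.93 and 10.07. The co-housed Xiap-/- mice all lay above the Xiap-/- mice housed apart, while they overlapped both WT groups. The difference was 0.25 ± 0.10 from co-housed WT mice (95% interval 0.06 to 0.45) and 0.34 ± 0.10 from Xiap-/- mice housed apart (0.13 to 0.54). Of the 75-base windows at its 3' end, 74.8% also occur in 8 other annotated genes, of which 7 are in the table with means up to 2.03, so its level is uncertain to the extent that reads were divided among copies.

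Hsph1, the HSP110 exchange factor on chromosome 5 (149614287 to 149636376), had a larger estimated difference between the housings of Xiap-/- mice than between the co-housed genotypes. It had levels of 7.77, 8.05, 7.49, 7.28 and 7.65 in co-housed Xiap-/- mice, against 6.86, 6.95, 7.21, 7.18 and 7.42 in co-housed WT mice. Its levels were 6.71, 6.93, 6.52 and 6.74 in Xiap-/- mice housed apart, and WT mice housed apart had a lowest, median and highest level of 6.47, 7.03 and 7.29. All 5 co-housed Xiap-/- values lay above all 4 values of Xiap-/- mice housed apart, and 4 of the 5 lay above all co-housed WT values, the exception being replicate 4. The difference was 0.92 ± 0.15, or 1.90-fold, from Xiap-/- mice housed apart (95% interval 0.62 to 1.23) and 0.52 ± 0.14, or 1.44-fold, from co-housed WT mice (0.24 to 0.81). In mice housed apart the order of the genotypes was the other way round, with a Xiap-/- minus WT difference of -0.23 ± 0.14, and the genotype difference in co-housed mice exceeded that in mice housed apart by 0.76 ± 0.20.

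The Hsph1 promoter is shown because this gene, unlike Hspa1a and Hspa1b, holds a longer element with 3 alternating units (RefSeq, GRCm38.p6, minus strand, chr5:149636287-149636586, cores in capitals).
Hsph1: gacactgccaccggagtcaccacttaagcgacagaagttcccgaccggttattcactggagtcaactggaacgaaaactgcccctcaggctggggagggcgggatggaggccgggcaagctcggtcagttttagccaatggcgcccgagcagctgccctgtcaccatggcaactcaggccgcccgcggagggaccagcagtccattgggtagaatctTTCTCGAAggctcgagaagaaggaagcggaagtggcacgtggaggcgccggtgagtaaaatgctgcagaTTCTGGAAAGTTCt
A first core, TTCTCGAA, starts 33 bases upstream of the start site, and TTCTGGAA and GAAAGTTC overlap from 36 bases downstream of it. Runs of 3 units, which are the core with a further alternating unit at the same spacing on either side, occur in 0.603% of the 32851 windows. They occur in 4 of the 12 windows of members. These windows belong to 3 of the 7 members with a window, namely Hsph1, Hspd1 and Hspe1, of which Hspd1 and Hspe1 share 1 sequence read in opposite directions.

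Of the J-domain genes, Dnajb1 (chromosome 8, 83608193 to 83612653), the inducible partner of HSP70, had levels of 5.89, 6.16, 6.13, 5.93 and 6.11 in co-housed Xiap-/- mice, against 5.64, 5.69, 5.50, 5.85 and 5.55 in co-housed WT mice. It had levels of 5.66, 5.89, 5.92 and 5.81 in Xiap-/- mice housed apart, and a lowest, median and highest level of 5.54, 5.71 and 5.97 in WT mice housed apart. The co-housed genotypes did not overlap, by a gap of 0.04, and the co-housed Xiap-/- mice overlapped both groups housed apart. The difference was 0.40 ± 0.09 from co-housed WT mice (95% interval 0.21 to 0.59) and 0.23 ± 0.10 from Xiap-/- mice housed apart (0.02 to 0.43).

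Dnaja1 (chromosome 4, 40722150 to 40737149), which serves HSP70 in the cytosol, had levels of 6.51, 6.52, 6.53, 6.56 and 6.66 in co-housed Xiap-/- mice, against 6.45, 6.17, 6.17, 6.28 and 6.40 in co-housed WT mice. Xiap-/- mice housed apart had 6.29, 6.33, 6.32 and 6.41, and WT mice housed apart a lowest, median and highest level of 6.12, 6.27 and 6.56. The co-housed Xiap-/- mice were close together and above every co-housed WT mouse and every Xiap-/- mouse housed apart, but they overlapped the WT mice housed apart. The difference was 0.26 ± 0.09 (95% interval 0.08 to 0.44) from co-housed WT mice and 0.22 ± 0.09 (0.03 to 0.41) from Xiap-/- mice housed apart.

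For the HSP90 genes the estimated differences between housings were larger than those between genotypes, which was not tested. Hsp90aa1 (chromosome 12, 110690605 to 110702728), the stress-responsive form, had levels of 7.44, 7.76, 7.26, 7.40 and 7.49 in co-housed Xiap-/- mice, against 6.93, 7.11, 6.88 and 7.03 in Xiap-/- mice housed apart, without overlap. Its levels were 7.14, 7.11, 7.28, 7.33 and 7.44 in co-housed WT mice, and the lowest, median and highest in WT mice housed apart were 6.49, 6.98 and 7.36. The housing difference was 0.48 ± 0.12 in Xiap-/- mice (95% interval 0.23 to 0.73) and 0.28 ± 0.11 in WT mice (0.05 to 0.50), and the genotype difference in co-housed mice was 0.21 ± 0.11 (-0.02 to 0.44).

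Hsp90ab1 (chromosome 17, 45567775 to 45573271), the constitutive form, had levels of 11.39, 11.57, 11.22, 11 and 11.20 in co-housed Xiap-/- mice and lay at 11.09 to 11.48 in co-housed WT mice. In mice housed apart it lay at 10.76 to 11.12 in Xiap-/- and 10.81 to 11.36 in WT. All 4 groups overlapped, and the co-housed genotypes differed by 0.04 ± 0.12 (95% interval -0.19 to 0.28). Its 3' end shares 3.07% of windows with the gene Gm6368, which has a mean of 6.56 in the table.

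The mitochondrial chaperonin genes had small differences. Hspd1 (chromosome 1, 55077835 to 55088243) lay at 7.87 to 8.06 in co-housed Xiap-/- mice and 7.82 to 8.11 in co-housed WT mice, and at 7.68 to 7.90 in Xiap-/- and 7.57 to 7.90 in WT mice housed apart. Its difference between the co-housed genotypes was 0.07 ± 0.08 (95% interval -0.11 to 0.24). Hspe1 (chromosome 1, 55088132 to 55091307) lay at 8.19 to 8.53 in co-housed Xiap-/- mice and 8.02 to 8.30 in co-housed WT mice, with a difference of 0.18 ± 0.10 (-0.01 to 0.38). Between the housings of Xiap-/- mice the difference was 0.15 ± 0.09 for Hspd1 (-0.03 to 0.33) and 0.19 ± 0.10 for Hspe1 (-0.02 to 0.39). In mice housed apart Hspe1 lay at 8.01 to 8.31 in Xiap-/- and 7.96 to 8.51 in WT. For Hspe1, 41.7% of the 3' windows also occur in 2 other annotated genes, so its level is uncertain in the same way as that of Hspa8.

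Hspd1 and Hspe1 lie head to head and their annotated 5' ends overlap by 112 bases. The window of Hspe1 is shown because its 3 overlapping cores are also those of the Hspd1 window on the other strand (RefSeq, GRCm38.p6, plus strand, chr1:55087898-55088197, cores in capitals).
Hspe1: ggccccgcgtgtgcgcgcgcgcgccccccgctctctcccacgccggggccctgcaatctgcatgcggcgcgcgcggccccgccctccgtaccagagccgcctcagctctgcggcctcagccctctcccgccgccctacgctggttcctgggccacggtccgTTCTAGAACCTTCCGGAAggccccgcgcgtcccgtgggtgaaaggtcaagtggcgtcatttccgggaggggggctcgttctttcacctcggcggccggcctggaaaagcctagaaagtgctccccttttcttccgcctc
The cores TTCTAGAA, GAACCTTC and TTCCGGAA start 89, 84 and 79 bases upstream of the Hspe1 start. Of the members with a run of 3 units, Hsph1 had a large difference in co-housed Xiap-/- mice, and Hspd1 and Hspe1 had small ones. Hspd1 and Hspe1 share the same sequence, only exact cores were searched, and Hspa8, Hsp90aa1 and Hsp90ab1 had no window. A relation between cores and the size of the differences was not tested.

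**Figure D2:**
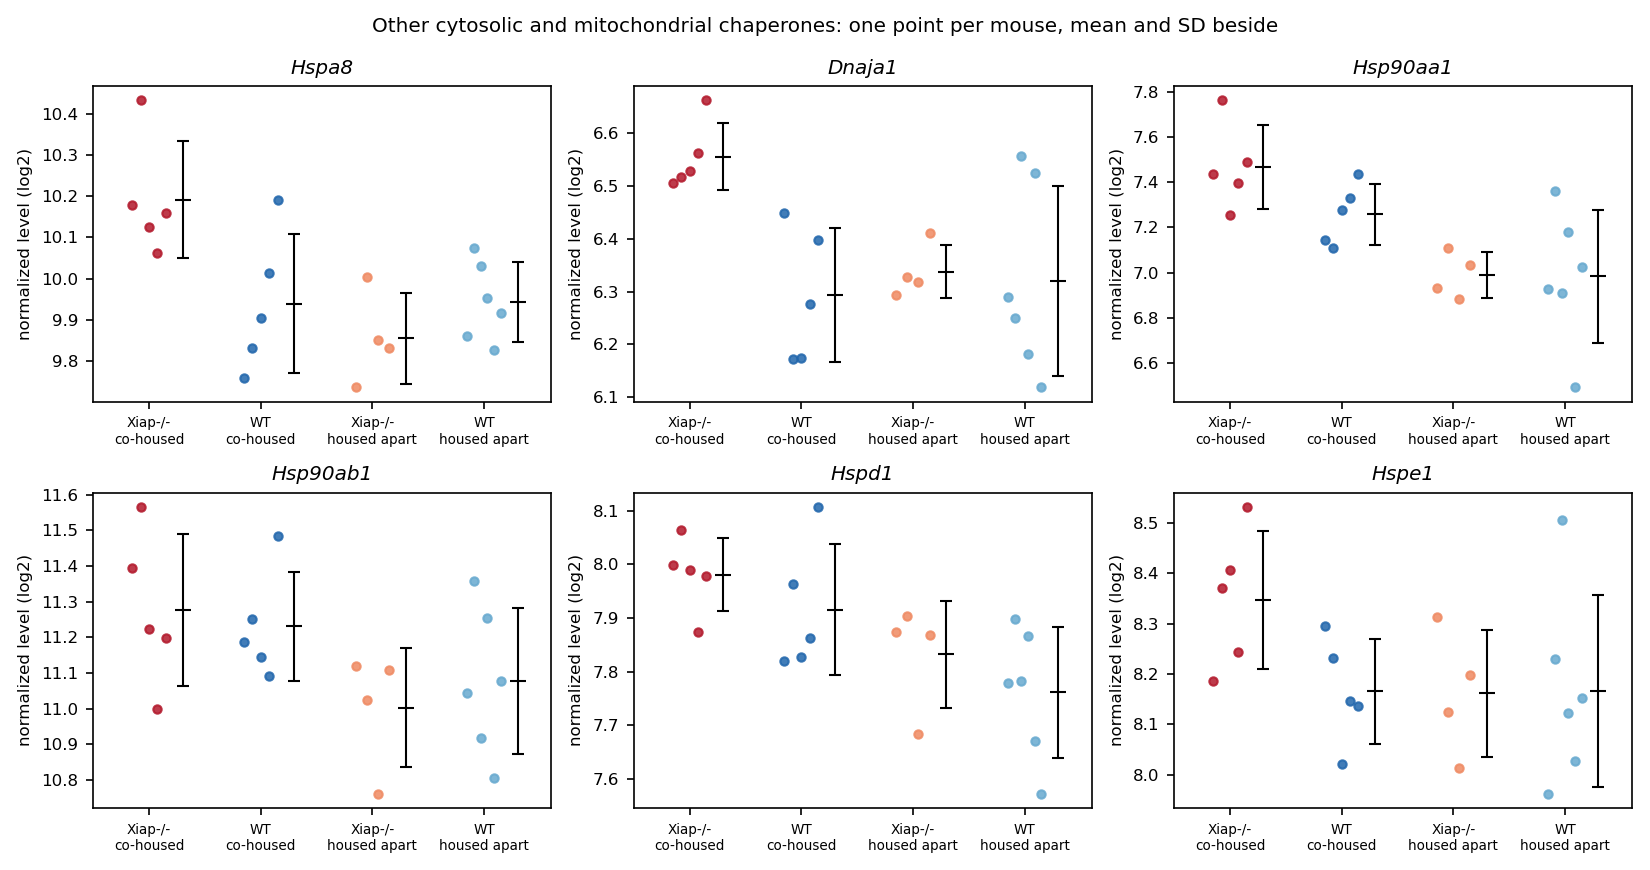
Normalized level (log2) of Hspa8, Dnaja1, Hsp90aa1, Hsp90ab1, Hspd1 and Hspe1 in each of the 20 mice by group, with the group mean and SD as a bar beside the points. All 4 groups overlap for Hsp90ab1, Hspd1 and Hspe1, with Hspd1 at 7.87 to 8.06 in co-housed Xiap-/- mice and 7.82 to 8.11 in co-housed WT mice, while co-housed Xiap-/- mice lie above Xiap-/- mice housed apart without overlap for Hspa8, Dnaja1 and Hsp90aa1.

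In order of their group means, neighbouring groups overlapped for nearly every gene. Co-housed Xiap-/- mice stood apart from the next group in the order for Hspa1b and Dnaja1, and all other neighbours in the order overlapped in range. The lowest mean was that of Xiap-/- mice housed apart for 4 genes, of co-housed WT mice for 4 and of WT mice housed apart for 2.

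Counted over the set, all 10 genes lay higher in co-housed Xiap-/- than in co-housed WT mice and all 10 lay higher than in Xiap-/- mice housed apart. Among the 9 tested, 3 did not overlap between the co-housed genotypes and 5 did not overlap between the housings of Xiap-/- mice, where 1.33% and 2.65% of all tested genes were higher without overlap. Past an adjusted p of 0.05 in limma over all genes were 1 of 9 between the co-housed genotypes (Hspa1b, with 0.0315% of all genes past it and 0.021% past it and higher), 2 of 9 between the housings of Xiap-/- mice (Hspa1b and Hsph1, with 0.147% past it and 0.0525% past it and higher) and 1 of 9 for the difference between the genotype differences (Hspa1b, with 0.0105%). Between the housings of Xiap-/- mice the count was 1 without Xiap-/- replicate 3 housed apart and 3 without WT replicate 5 housed apart. These counts follow from the choice of the set, and Hspa1b was among the tested genes only through the co-housed Xiap-/- mice, so nothing is read from them. The median difference of the 9 was 0.25 between the co-housed genotypes and 0.27 between the housings of Xiap-/- mice, where the medians of all tested genes were 0.00.

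**Figure D3:**
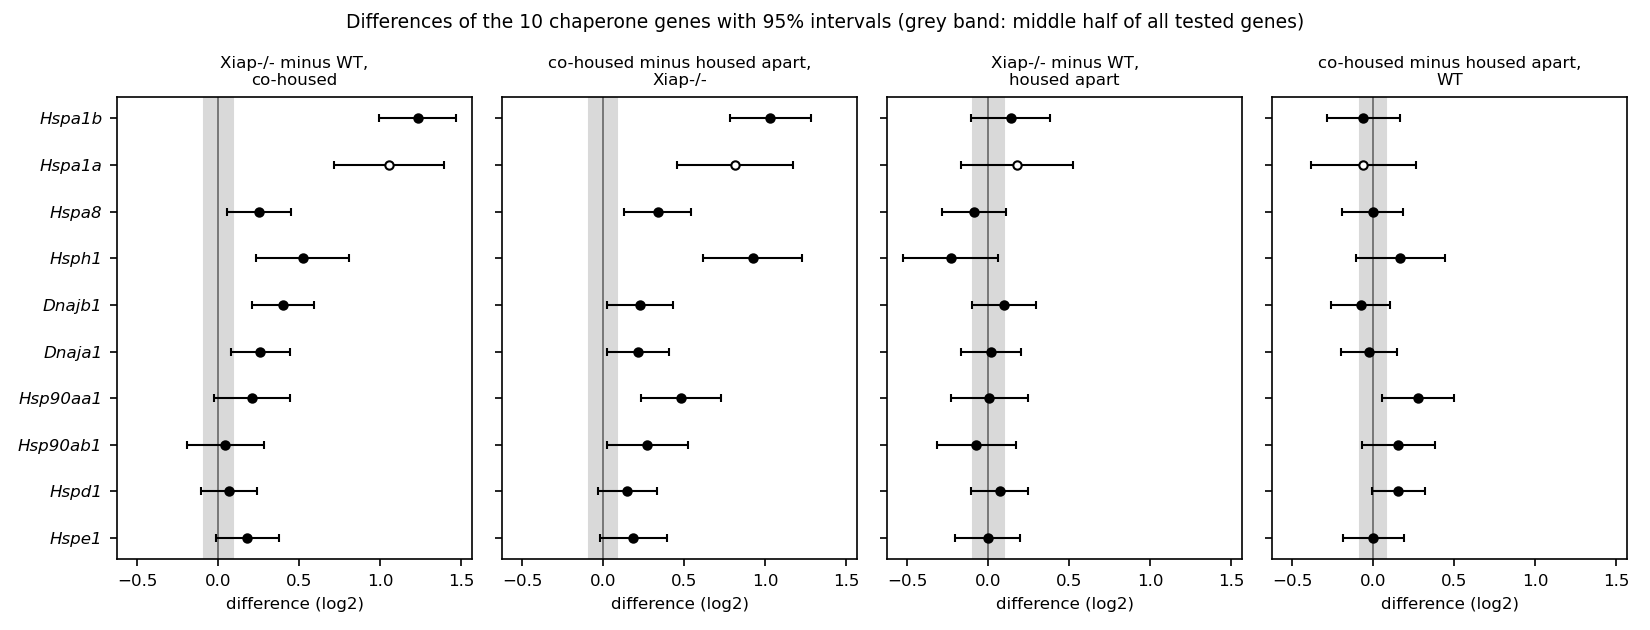
Difference (log2) of each of the 10 genes with its 95% interval in 4 comparisons, Xiap-/- minus WT or co-housed minus housed apart, with the middle 50% of all tested genes in grey and Hspa1a, from the fit with no minimum level, as an open point. The genes spread to the right where co-housed Xiap-/- mice are compared, up to 1.23 for Hspa1b, and stay between -0.23 and 0.28 in the other comparisons.

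The remaining comparisons did not use the mean of the co-housed Xiap-/- mice, on which the set was chosen. Their spread was estimated over all groups, those mice included, in which Hspa1b had an SD of 0.36 against 0.06 to 0.17 in the other groups. Hspa1b was also among the 9 only through those mice. Its adjusted p and its place in the counts are therefore not free of the choice. In mice housed apart no genotype difference was detected in any of these genes. In mice housed apart, 0 of the 9 tested genes passed in limma between Xiap-/- and WT mice, and 0 had an unadjusted p under 0.05, where 0.452% of all genes passed (43 of 9521) and 15.8% had an unadjusted p under 0.05. None of the 9 was higher without overlap, as 0.819% of all genes were. The 43 rested on single mice, with 9 left without Xiap-/- replicate 2 and 697 found without WT replicate 5, while the members past the threshold stayed at 0 whichever mouse was left out. Of the 10 genes, 6 lay higher and 4 lower in Xiap-/- mice. The largest in size was that of Hsph1, at -0.23 ± 0.14 (limma adjusted p = 0.448, 95% interval -0.52 to 0.06). Hspa1b differed by 0.14 ± 0.12 (limma adjusted p = 0.606, interval -0.10 to 0.38), and Hspa1a by 0.18 ± 0.16 in the fit with no minimum level (limma adjusted p = 0.776, interval -0.17 to 0.52). Dnajb1 differed by 0.10 ± 0.10, Hspa8 by -0.09 ± 0.10, Hsp90ab1 by -0.07 ± 0.12 and Hspd1 by 0.07 ± 0.09. Hsp90aa1 (0.0066 ± 0.12), Dnaja1 (0.02 ± 0.09) and Hspe1 (-0.0044 ± 0.10) were nearest to 0.

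Between the housings of WT mice none of the 9521 tested genes passed, while 5 genes did with no filter on low values. Of the 9 tested genes 0 passed in limma between co-housed WT mice and WT mice housed apart, and 0% of all 9521 genes did, while 10.2% of all genes and 1 of the 9 had an unadjusted p under 0.05. None of the 9 was higher without overlap, as 0.305% of all genes were. The gene with the low unadjusted p was Hsp90aa1, which differed by 0.28 ± 0.11 (limma adjusted p = 0.425). Hspa1b differed by -0.06 ± 0.11 (limma adjusted p = 0.871, 95% interval -0.29 to 0.16) and Hspa1a by -0.06 ± 0.15 in the fit with no minimum level (limma adjusted p = 0.962, interval -0.38 to 0.26). Dnajb1 differed by -0.08 ± 0.09, Dnaja1 by -0.03 ± 0.08, Hspa8 by -0.0038 ± 0.09 and Hspe1 by -0.0005 ± 0.09, of which Hspa8 turned to 0.11 and Hspe1 to 0.0468 under quantile normalization. Hsph1 differed by 0.17 ± 0.13, Hsp90ab1 by 0.15 ± 0.11 and Hspd1 by 0.15 ± 0.08. All 4 comparisons of group pairs share groups with others of the 4, so their values are not independent.

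Other genes of the chaperone network were not singled out by these comparisons. In 7 lists of cofactors and related chaperones, 79 of 83 genes were measured and 64 reached the minimum mean. Of these 64, 0 rose and 0 fell in limma in mice housed apart between Xiap-/- and WT, and 0 rose and 0 fell between housings in WT mice, where 0.452% and 0% of all genes passed. At an unadjusted p under 0.05 were 9 and 5 of the 64, beside 15.8% and 10.2% of all genes. Between the co-housed genotypes 33 of the 64 lay higher and 31 lower in Xiap-/- mice, with a median of 0.01 and 0 past the threshold. The transcription factor gene Hsf1 differed by -0.04 ± 0.10 there and by 0.07 ± 0.10 in mice housed apart, and its negative regulator Hsbp1 by 0.17 ± 0.12 and 0.34 ± 0.12. Hsf1 is controlled largely at the protein level, so its transcript is no measure of its activity.

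By list, 3 of 11 HSP70 partners and exchange factors lay higher between the co-housed genotypes (median -0.06), with the nucleotide exchange factor Bag1 at -0.07 ± 0.10 and the ubiquitin ligase Stub1 at -0.09 ± 0.10. Other J-domain genes lay higher in 7 of 12 (median 0.03, Dnaja2 0.19 ± 0.10 and Dnajc5 -0.14 ± 0.09). HSP90 co-chaperones lay higher in 8 of 15 (median 0.00, the immunophilin Fkbp4 0.0033 ± 0.08 and Sgta -0.0006 ± 0.09). Subunits of TRiC, the chaperonin that folds actin and tubulin, lay higher in 4 of 8 (median -0.01, Cct2 -0.03 ± 0.10 and Cct5 0.01 ± 0.09). Other mitochondrial chaperones and proteases lay higher in 9 of 15 (median 0.09), with the matrix HSP70 Hspa9 at -0.04 ± 0.10 and the protease Afg3l2 at -0.10 ± 0.09. Of 6 measured genes listed as small heat shock proteins 1 was tested, Hspb11 (0.24 ± 0.09), so no value is given for the family. The mean of the classical small heat shock protein gene Hspb1 was -2.42 in co-housed Xiap-/- and -2.40 in co-housed WT mice.

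**Figure D4:**
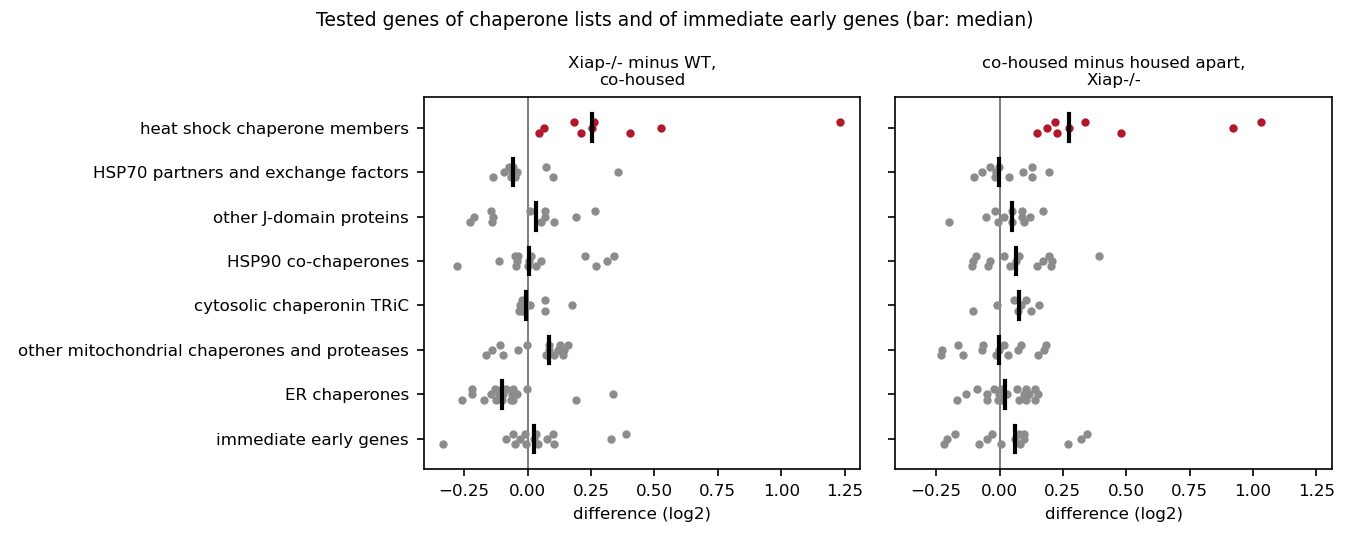
Difference (log2) of each tested gene in the chaperone lists and among immediate early genes, for Xiap-/- minus WT in co-housed mice and co-housed minus housed apart in Xiap-/- mice, with each list's median as a bar. The set, in red, was chosen on these comparisons and has medians of 0.25 and 0.27, while the medians of the lists with 8 or more tested genes lie between -0.10 and 0.09.

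Chaperones of the endoplasmic reticulum, which answer to a different stress pathway, lay lower in 18 of 20 genes in co-housed Xiap-/- than in co-housed WT mice, with a median of -0.10 and 0 past the threshold. Canx differed by -0.13 ± 0.09 and Hspa5, the reticular HSP70, by -0.04 ± 0.10. Immediate early genes, which also respond within minutes to handling of tissue, lay higher in 8 of 15 (median 0.02, 0 past the threshold), with Junb at -0.01 ± 0.12 and Fos at -0.05 ± 0.12. Their mean level, over 21 measured genes, was 4.54 to 4.69 in co-housed Xiap-/- mice, 4.47 to 4.61 in co-housed WT mice, 4.52 to 4.64 in Xiap-/- mice housed apart and 4.61 to 4.72 in WT mice housed apart. In mice housed apart, 12 of the 15 lay lower in Xiap-/- than in WT mice (median -0.11). Between the housings of WT mice, 12 of 15 lay lower when co-housed (median -0.10). The genotype difference was higher in co-housed mice than in mice housed apart in 13 of 15 (median 0.16, 0 past the threshold). Whether handling had a part in the chaperone values was not tested.

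Markers of cell types were set beside these values, since in bulk RNA a change in the share of a cell type and a change in RNA per cell cannot be told apart. T cell markers lay higher in 11 of 11 tested genes in co-housed Xiap-/- than in co-housed WT mice (median 0.23, 0 past the threshold), with a mean level over 12 measured genes of 5.16 to 5.89 against 5.07 to 5.48. In mice housed apart that mean level was 5.39 to 5.90 in Xiap-/- and 5.28 to 5.89 in WT mice. T cell markers lay lower in co-housed WT mice than in WT mice housed apart in 11 of 11 (median -0.28). Between the housings of Xiap-/- mice the same markers lay lower in 9 of 11 (median -0.05). In that comparison absorptive cell markers lay lower in 9 of 9 (median -0.17), with mean levels of 11.33 to 11.67 in co-housed Xiap-/- mice and 11.63 to 12.07 in Xiap-/- mice housed apart. Enteroendocrine cell markers lay lower in 8 of 8 (median -0.19), with mean levels of 6.19 to 6.52 against 6.37 to 6.80. Tuft cell markers lay lower in 5 of 5 tested genes (median -0.14), with mean levels of 2.44 to 2.68 against 2.70 to 2.77, and 1 of them, Ltc4s, was past the threshold with a difference of -0.52 ± 0.11. B and plasma cell markers lay higher in 4 of 4 tested genes (median 0.42), with mean levels of 1.84 to 2.27 against 1.79 to 1.95. Between the housings of WT mice, absorptive cell markers also lay lower, in 7 of 9 (median -0.22), and enteroendocrine cell markers in 6 of 8 (median -0.11). Tuft cell markers lay lower there in 2 of 5 (median 0.03), and B and plasma cell markers in 4 of 4 (median -0.15). Between the co-housed genotypes, stem cell markers lay higher in 7 of 7 (median 0.09), with mean levels of 5.63 to 5.85 against 5.60 to 5.75, and dividing cell markers in 6 of 10 (median 0.04). Paneth cell markers lay higher in 8 of 10 (median 0.07), goblet cell markers in 6 of 7 (median 0.13) and absorptive cell markers in 6 of 9 (median 0.03). The part of these cell types in the chaperone values was not tested. Stromal and endothelial markers reached the minimum in 1 of 10 measured genes, blood markers in 1 of 5, and hepatocyte markers in 1 of 6.

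Within groups, the chaperone genes fell into more than 1 pattern. The deviation of each mouse from its group mean, which the choice of the set did not use, was compared between genes over the 20 mice, as a description. Of 45 pairs of members 38 had a positive Pearson's r and 11 an r over 0.5, with a median of 0.187. No such share is given for pairs of all genes, so these counts do not set the members apart from other genes. Hspa1a and Hspa1b varied together (r = 0.735). Their SD was 0.48 and 0.36 in co-housed Xiap-/- mice but 0.06 to 0.17 in the other groups, so the r values of these 2 genes rest largely on the co-housed Xiap-/- mice. Hsph1, Hspa8, Hsp90aa1, Hsp90ab1 and Hspd1 varied together in every pairing, from r = 0.537 for Hsph1 with Hspd1 to r = 0.778 for Hsph1 with Hsp90aa1. By r with Hsph1 among 9520 tested genes, Hsp90aa1 ranked 5, Hspa8 14 and Hsp90ab1 54, while Hspd1 ranked 507. The 95th percentile over all genes was 0.545, above the r of Hspd1. Hspa1b had r = 0.310 to Hsph1, 0.210 to Hsp90aa1 and 0.149 to Hspa8, and its highest r after Hspa1a was 0.495, to Hspe1, and the neighbours Hspd1 and Hspe1 had r = 0.237. The J-domain genes gave the lowest values, with r = -0.385 between Dnajb1 and Hspd1 and r = -0.380 between Dnaja1 and Hsp90aa1, but Dnajb1 had r = 0.187 to Hspa8. All values come from the same libraries and share their normalization, and the members' deviations had r between -0.196 and 0.282 with that of the depth stand-in.

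**Figure D5:**
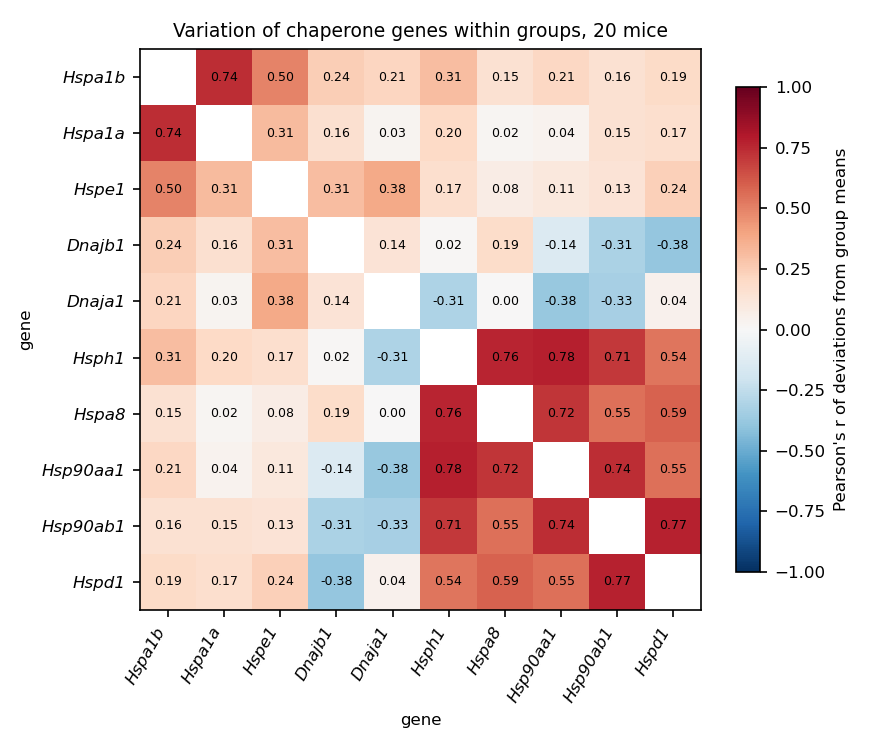
Pearson's r between each pair of the 10 genes, computed on the deviations of 20 mice from their group means, from blue (negative) to red (positive). Hsph1, Hspa8, Hsp90aa1, Hsp90ab1 and Hspd1 form a red block with r of 0.537 and above, and Hspa1a with Hspa1b, at 0.735, lies outside it.

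Among all 9520 other tested genes, those most like Hsph1 in these deviations were Lzts2 (r = 0.862), Rbm10 (0.843), Eif4g1 (0.838), Supt5 (0.792) and Hsp90aa1 (0.778), where the median r of all genes was -0.017 and the 95th percentile 0.545. Those most like Hspd1 were Pabpc1 (r = 0.844), Nop58 (0.841), Pelp1 (0.811), Vars (0.808) and Tmem168 (0.790), with a median of -0.015 and a 95th percentile of 0.494 over all genes. Those most like Hspa1b were Rpl35a-ps7 (r = 0.720), Olfm4 (0.709), Hp1bp3 (0.700), Rnmt (0.684) and Gm10784 (0.681), with a median of -0.002 and a 95th percentile of 0.334. Hspa1a was not among the tested genes and so could not appear in that order. The order for Hspa1b rests largely on the co-housed Xiap-/- mice, in which its spread was widest.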

How the data were processed

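The RNA of 20 crypt samples was sequenced as 3' ends of poly(A) transcripts with unique molecular identifiers, per the labels' protocols, in which the extraction step names liver although tissue and source are intestinal. The authors deposited normalized values on a log2 scale, from -3.88 to 16.30, for 23020 genes. DESeq2 1.18.1 and build GRCm38.p6 are named per the submitters' processing notes, and the transformation, aligner and counter are not given in the sources used here. Depth per library is unknown, so no counting interval is given. The stand-in for depth counts rare genes (mean below -3) more than 0.015 above their own median over libraries.

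The deposited values needed no pseudocount. They were fitted with limma 3.58.1 under R 4.3.3: 4 group means, variance trend, robust moderation, 16 residual degrees of freedom, Benjamini-Hochberg adjustment over the 9521 genes with a mean of at least log2 of 10, two-sided. The model was checked on simulated data for both comparisons without co-housed Xiap-/- mice. All 10 members are named. Of each other list up to 3 genes are named that passed in a comparison not used to choose the set, or else the 2 with the highest mean. For Hspa1b, Hsph1 and Hspd1 the 5 genes with the highest r of deviations are named. The members and lists were chosen with earlier results of these data known. Alternatives were other filters, scalings, weights, covariates, a replicate block and leaving out each mouse. Same-numbered mice are not tied by the labels.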

Additional observations from a re-analysis of the deposited data

Results flagged for a closer look

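Of 40 combinations of the 10 genes with the 4 groups, 1 held a mouse set apart from the rest of its group by Dixon's test, of which chance flags about 1 in 20. It was Hspd1 in replicate 3 of the Xiap-/- mice housed apart, at 7.68, while the other 3 mice of that group lay between 7.87 and 7.90.

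The genotype difference of Hspa1b was larger in co-housed mice than in mice housed apart by 1.10 on the log2 scale. The value stands out as a difference between housings and, because the set was chosen on this pattern, is given with no p-value and nothing is read from it.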

How the results depend on the processing

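In both comparisons without co-housed Xiap-/- mice, 0 of the tested members passed under all alternatives run, leaving out each mouse included. The smallest adjusted p over these was 0.114, for Hsph1 in mice housed apart, and 0.149, for Hsp90aa1 between housings in WT mice. Between the co-housed genotypes the members past the threshold were 1 with the settings reported, 2 with no filter on low values, 0 with a mean of at least 5 (which removes Hspa1b), and 3 with only the groups compared or with array quality weights. Between the housings of Xiap-/- mice they were 2, against 1 with a mean of at least 5, 4 with array quality weights, 1 with the depth stand-in as covariate and 1 to 3 when mice were left out (1 without Xiap-/- replicate 3 housed apart, 3 without WT replicate 5 housed apart). The difference between genotype differences had 1, and 0 with a mean of at least 5. Hspa1b had differences of 1.09 to 1.34 between the co-housed genotypes and 0.89 to 1.14 between the housings of Xiap-/- mice when mice were left out.

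Differences near 0 turned sign. In mice housed apart, Hspe1 became 0.0535 with array quality weights and 0.0223 with the depth stand-in, with which Dnaja1 became -0.0456, and Hsp90aa1 became -0.0085 with the replicate block. In WT mice between housings, Hspa8 and Hspe1 became 0.11 and 0.0468 with quantile normalization and 0.013 and 0.0495 with array quality weights, and Hspe1 became 0.0024 with the depth stand-in. With mice left out, the ranges in mice housed apart were -0.0227 to 0.065 for Dnaja1, -0.0918 to 0.0825 for Hsp90aa1, -0.13 to 0.0075 for Hsp90ab1 and -0.0546 to 0.0635 for Hspe1. In WT mice between housings they were -0.0668 to 0.0209 for Dnaja1, -0.067 to 0.0414 for Hspa8 and -0.0414 to 0.0674 for Hspe1. The cause was not tested. Of the alternative values of single members, 1253 were counted as keeping direction and call or moving by less than the spread between mice. A turned sign was counted for 36, all in the comparisons without co-housed Xiap-/- mice. Sign changes in the comparisons with those mice are among the 1253. Hsp90ab1 between the co-housed genotypes became -0.0275 without co-housed Xiap-/- replicate 2. For Hspd1 the difference between genotype differences was -0.0056, and ranged from -0.0551 to 0.0424 with mice left out.

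The number of all genes past the threshold, against which the members are read, was less stable. It was 43 in mice housed apart (3 to 385 over settings, 9 to 697 with mice left out), 0 between housings in WT mice (0 to 5, and 0 to 66), 3 between the co-housed genotypes (0 to 159, and 1 to 12), 14 between the housings of Xiap-/- mice (1 to 224, and 2 to 64) and 1 for the difference of differences (0 to 10, and 1 to 1). With the replicate block it was 350, 0, 4, 189 and 10 in that order. Of 27 same-numbered pairs, 10 had a correlation of deviations over 0.1 (-0.416 to 0.363). A mouse correlated best with its own number in 15 of 54 cases. No value expected by chance was computed, so these values cannot decide whether the numbers pair the mice.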

Other observations

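Of the 64 tested genes in the other chaperone lists, 33 lay higher and 31 lower in co-housed Xiap-/- than in co-housed WT mice. The 4 cofactors of HSP70 and HSP90 described here were chosen among them after their values were seen, so their values are a description. All 4 are among the 33 that lay higher. Among the 31 that lay lower, Cdc37l1 had a mean of 5.43 in co-housed Xiap-/- and 5.70 in co-housed WT mice. Dnajc21 had 6.11 against 6.33 and Dnajb14 had 5.16 against 5.37. Groups that did not overlap, with the co-housed Xiap-/- mice higher, were found for 1.33% of all genes between the co-housed genotypes and 2.65% between the housings of Xiap-/- mice. Bag3, an HSP70 cofactor known as a target of heat shock factor, had a mean of 5.82 in co-housed Xiap-/- and 5.47 in co-housed WT mice, and of 5.63 in Xiap-/- and 5.50 in WT mice housed apart. Its difference between the co-housed genotypes was 0.36 ± 0.10 (SE), and 4 of 5 co-housed Xiap-/- mice lay above all co-housed WT mice. Chordc1, an HSP90 cofactor, had a mean of 6.69 in co-housed Xiap-/- mice, 6.43 in co-housed WT mice, 6.30 in Xiap-/- mice housed apart and 6.38 in WT mice housed apart, with a difference of 0.39 ± 0.10 between the housings of Xiap-/- mice and no overlap between them.

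Fkbp5, an HSP90 immunophilin induced by glucocorticoids, had a mean of 4.58 in co-housed Xiap-/- mice and 4.27 in co-housed WT mice, and of 4.37 in Xiap-/- and 4.51 in WT mice housed apart, with all 5 co-housed Xiap-/- values above all 5 co-housed WT values. Cacybp, a co-chaperone that binds ubiquitin ligases, had a mean of 7.44 in co-housed Xiap-/- and 7.10 in co-housed WT mice, without overlap, and of 7.27 in Xiap-/- and 6.99 in WT mice housed apart, so it lay higher in Xiap-/- mice under both housings. None of the 4 cofactors passed in a comparison on which the set was not chosen (limma adjusted p from 0.168 for Cacybp in mice housed apart upwards).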
